A study of Homo sapiens with 5 samples.

Results

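Of the 80514 SRSF9 eCLIP peaks in the deposited table, 483 were strong in cells without overexpressed ADAR2 and had no peak called at the same place in cells with it. A peak was taken when it lay outside the mitochondrial chromosome, carried the placeholder 0 in both libraries with ADAR2, and had a log2 ratio above 1 in both libraries without ADAR2. The members were thus chosen by their measured ratios, and those ratios are given as a description with no test. Of the 4742 peaks outside the mitochondrial chromosome found only without ADAR2, the 483 made up 10.2%, and the other 4259 serve as the nearest comparison. On the mitochondrial chromosome, 4 of 21 such peaks would also have passed the threshold and were left out.

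The libraries came from HEK 293T, a human embryonic kidney cell line. In 1 condition the cells overexpressed SRSF9 only, and in the other they overexpressed SRSF9 and ADAR2, with 2 eCLIP libraries each. Overexpressed SRSF9 was therefore common to both conditions, and binding by SRSF9 at its native level was not measured in them. Throughout, without ADAR2 means without overexpressed ADAR2, and the level of native ADAR2 was not measured here. A single input RNA library came from cells with both proteins. The antibody field of the labels gives one to SRSF9, whereas the protocol describes MYC-coupled beads. The labels do not say whether the libraries of a condition were separate cultures, so the spread between them may be technical.

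SRSF9 (SRp30c) is a serine/arginine-rich splicing factor. Such proteins hold RNA through RNA recognition motifs and act through a domain of arginine-serine repeats, most often at exonic sequences near splice sites. ADAR2 deaminates adenosine to inosine in double-stranded RNA, and its best known substrates are messenger RNAs of neuronal receptors and channels. The study's stated question was how SRSF9 represses editing at ADAR2 targets. eCLIP recovers the RNA fragments held by a protein, so a peak marks a stretch of RNA and its width is that of the called stretch, not of a binding motif.

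All positions are on hg19, counted from 1. The annotation and promoter sequences at hand are on GRCh38, so peaks were not assigned to genes, exons, introns or UTRs, and no sequence was read for them. Strand is not given for any peak. Read depth is unknown, because the table holds ratios and no counts. Intervals on shares are 95% Wilson intervals and cover counting error over peaks only. The table gives 1 set of peaks per condition and peaks are not replicates, so no test over libraries exists for the positions, widths and distances below, and differences between sets of peaks are descriptions.

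In the first library without ADAR2 the 483 strong peaks had log2 ratios from 1.07 to 4.36, with a median of 2.24 and quartiles of 1.98 and 2.66. In the second library they had ratios from 1.00 to 3.16, with a median of 1.30 and quartiles of 1.15 and 1.56. First and second are the order of the unnamed columns. The ratio was higher in the first library at 451 of the 483 peaks, and the median difference, first minus second, was 0.99. Among the other 4259 peaks the first library was higher at 93.5%, and the median difference was 0.96. The median offset was thus of like size inside and outside the strong set. The rule cut both ratios at 1, which shapes the offset in both sets, so this likeness is a description only.

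The second library set the membership. Of the 4742 peaks, 2856 (60.2%) were above 1 in the first library and 499 (10.5%) in the second, and 483 of those 499 were also above 1 in the first. By the first library alone the set would have held 2856 peaks, and by the second alone 499. Of the 3751 shared peaks, 299 (7.97%) were above 1 in both libraries without ADAR2. In the plot of the ratios in both libraries the strong peaks form the upper right corner, cut along the second library's threshold through a dense field of points.

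**Figure D1:**
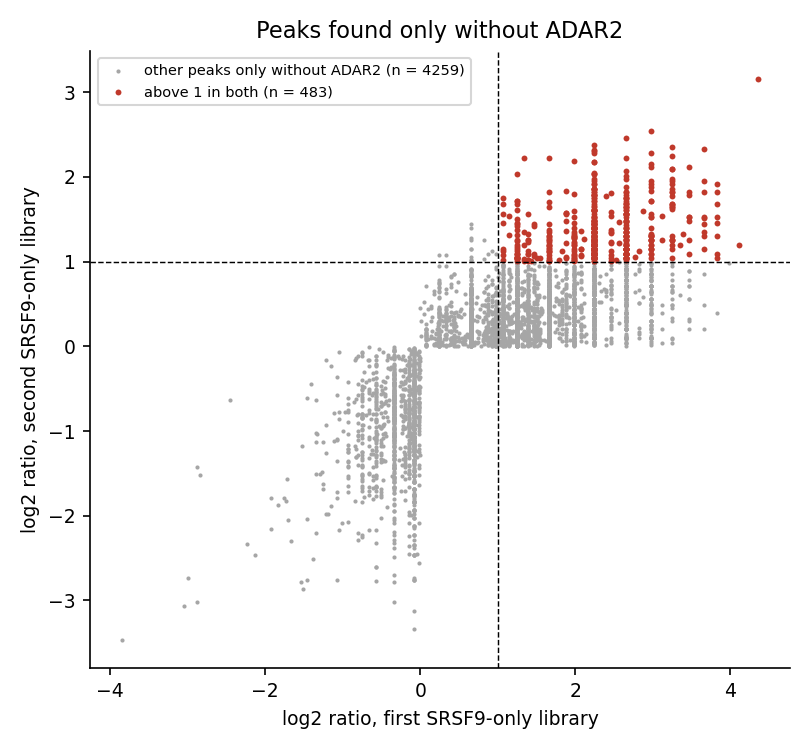
Log2 ratio of each peak found only without ADAR2 in the first (x axis) and second (y axis) SRSF9-only library, with the 483 strong peaks in red, the other 4259 in grey and dashed lines at 1. The red points stand in vertical stripes, because the first library took only 35 different values among them.

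The strong set thinned out quickly above its threshold. Both libraries exceeded 1.5 at 130 of the 483 peaks, 2 at 24 and 3 at 1. In the first library alone 358 exceeded 2 and 55 exceeded 3, and in the second alone 28 and 1 did.

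The peak with the highest lower ratio lay on chromosome 1 from 77955315 to 77955338, a stretch of 24 nt. Its ratios were 4.36 and 3.16, a mean of 3.76 ± 0.85 (SD, n = 2). It was the strongest of the set in both libraries and also stood apart in space, as the nearest peak with ADAR2 was 76423 nt away. Next came chromosome 6 from 122768031 to 122768068, with 2.98 and 2.54 (mean 2.76 ± 0.31, SD, n = 2). There a peak found only with ADAR2 began on the lower side after a space of 24 nt, from 122767957 to 122768006, with 1.07 and 1.53 in the libraries with ADAR2.

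The third was on chromosome 17 from 37627953 to 37628002, with 2.66 and 2.46 (2.56 ± 0.14, SD, n = 2). Its neighbour, 69 nt away, was a shared peak, called in both conditions, with -0.08 and -0.63 in the libraries without ADAR2, against 1.07 and 0.23 in those with ADAR2. Within this short stretch the 2 peaks thus had ratios of opposite sign in the same 2 libraries without ADAR2. On chromosome 1 a pair at a like distance had ratios of the same sign. There the strong peak from 29474848 to 29474881 had 3.66 and 2.33 (2.99 ± 0.94, SD, n = 2). In the shared peak 74 nt from it the libraries without ADAR2 gave 0.83 and 0.10, and those with ADAR2 gave 1.03 and 0.97.

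The other peaks among the 12 with the highest lower ratio were spread over several chromosomes. On chromosome 22 the peak from 36912759 to 36912770 had 3.24 and 2.35, 146 nt from a peak with ADAR2. On chromosome 17 the peak from 40618465 to 40618526 had 3.24 and 2.25 and stood 5503 nt from one, and the peak from 75495761 to 75495797 had 2.24 and 2.37 at 470 nt. On chromosome 19 the peaks from 14677041 to 14677048 and from 39332796 to 39332810 had 2.98 and 2.28, and 2.24 and 2.32. The high ratios thus occurred over short stretches too, here of 8 and 15 nt. On chromosome 2 from 17927130 to 17927181 the ratios were 2.24 and 2.30 (2.27 ± 0.04, SD, n = 2). On chromosome 4 from 177243343 to 177243383 they were 2.24 and 2.28, and on chromosome 8 from 144679087 to 144679143 they were 2.66 and 2.23. Of these 12 peaks, the one on chromosome 8 had the only nearest neighbour below 0 in both libraries with ADAR2, at -0.03 and -0.09.

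At the threshold the peaks inside and outside were alike in ratio. The members with the smallest lower ratio lay on chromosome 14 from 51716193 to 51716233, with 1.003 in the second library and 1.40 in the first, and on chromosome 1 from 11136914 to 11137010, with 1.005 and 1.44. A further 8 members were tied at 1.009, among them that on chromosome 15 from 78841200 to 78841208. Just outside, the peak from 14947915 to 14947921 of chromosome 12 had 0.999 in the second library and 1.66 in the first. That from 11121123 to 11121170 of chromosome 19 had 0.999 and 2.24. They were followed by 1 peak on chromosome 5 from 137902345 to 137902400, with 0.998 and 2.57.

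The ratios of the first library took few values. Among the 483 strong peaks it took 35 different values, and 169 of them (35.0%) had exactly 2.243. A further 78 had 2.658, 31 had 2.980, 28 had 1.243 and 27 had 1.980, so that 5 values covered 68.9% of the set. On the linear scale these 4 values are 1.33, 1.67, 0.50 and 0.83 times the commonest one. Such steps are those of ratios of small whole numbers. The second library took 146 different values, the commonest being 1.149 at 41 peaks (8.49%), and its 5 commonest covered 31.9%. Among the other 4259 peaks 2.243 was also the commonest of these values of the first library, at 513 peaks.

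**Figure D2:**
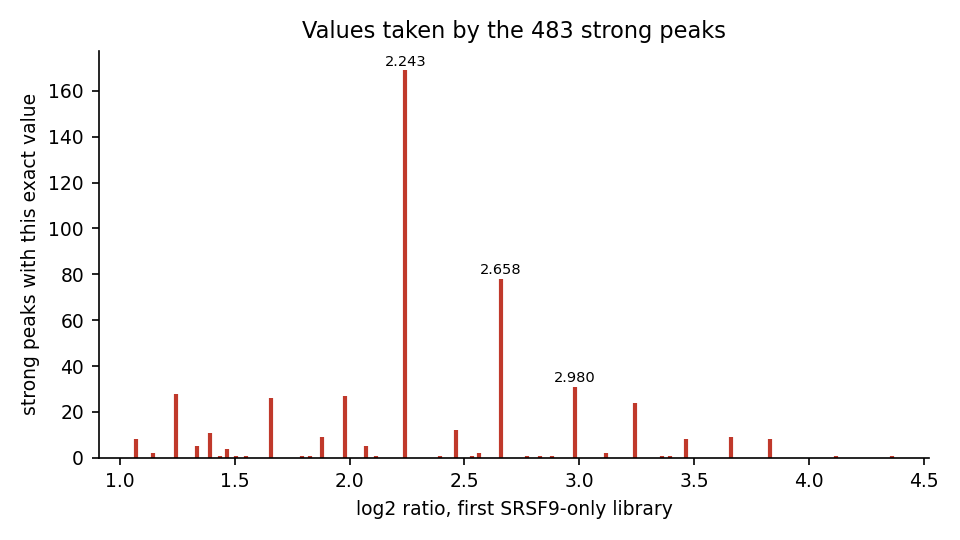
Number of strong peaks (y axis) at each exact log2 ratio of the first SRSF9-only library (x axis). The lines at 2.243, 2.658 and 2.980, with 169, 78 and 31 peaks, are labelled, and most of the axis between lines is empty.

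Peaks at a common value of the first library were not alike in other ways. The 169 at 2.243 had second-library ratios from 1.01 to 2.37 with a median of 1.25, and a median width of 27 nt. The 78 at 2.658 had 1.02 to 2.46 with a median of 1.32 and a median width of 30.5 nt. The 31 at 2.980 had a median of 1.31 and a median width of 39 nt. Of the 50 strong peaks that were at most 10 nt wide, 25 had the value 2.243. Over the 483 peaks the ratios of the 2 libraries had a Spearman correlation of 0.27, and width and mean ratio one of 0.14. These describe peaks from the same libraries after selection on both ratios, which narrows them.

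The strong peaks had the same median width as the weaker ones. Their median width was 32 nt (quartiles 19 and 44, range 1 to 129), and the other peaks found only without ADAR2 also had a median of 32 nt (19 and 46). Peaks found only with ADAR2 and above 1 in both of its libraries numbered 30951, 43.0% of their class outside the mitochondrial chromosome, and had a median of 36 nt (22 and 51). The 3615 shared regions had a median of 50 nt (32 and 72). Together the 483 peaks covered 16270 nt.

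Few strong peaks lay at either end of the width range. A width of 1 nt was found at 5 strong peaks (1.04%, 0.443 to 2.40) and at 1.17% (0.892 to 1.54) of the other peaks only without ADAR2. Of these 5, those on chromosome 1 at 44133643, chromosome 3 at 127779358, chromosome 5 at 140020961 and chromosome 6 at 90425440 had 2.24 in the first library. The fifth, on chromosome X at 16844238, had 1.24 and 1.20, with 3 nt between it and a peak with ADAR2. Of the 483 strong peaks, 3 were wider than 100 nt, and of the 4259 other peaks only without ADAR2, 44 were. So were 634 of the 30951 strong peaks only with ADAR2 and 364 of the 3615 shared regions. The 3 strong peaks without ADAR2 lay on chromosome 6 from 114261976 to 114262104 (129 nt, ratios 2.77 and 1.06), on chromosome 17 from 43226485 to 43226605 (121 nt, 1.55 and 1.05) and on chromosome 6 from 27100851 to 27100961 (111 nt, 3.83 and 1.52).

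Most strong peaks lay near a peak called with ADAR2, but such peaks were far more numerous. Outside the mitochondrial chromosome there were 71920 peaks only with ADAR2 and 3751 shared, against 4742 only without it. Nearness was not set against that density. Counting the nucleotides between the facing edges, so that adjoining peaks are at 0, the median distance to the nearest such peak was 654 nt (quartiles 134.5 and 2214). Of the 483, 89 (18.4%, 15.2 to 22.1) had one within 100 nt, 279 (57.8%, 53.3 to 62.1) within 1 kb and 465 (96.3%, 94.2 to 97.6) within 10 kb. The other peaks found only without ADAR2 had a median of 492 nt (104 and 1914.5), and 24.5% (23.3 to 25.9) of them had such a peak within 100 nt. Within 1 kb it was 63.7% (62.2 to 65.1) and within 10 kb 94.9% (94.2 to 95.5). At 100 nt and at 1 kb the strong peaks had the smaller share, though at 1 kb the intervals nearly met, and at 10 kb they overlapped. Of the other peaks, 214 lay within 100 nt of a shared region, and 110 of these had its second-library value. Among strong peaks it was 3 of 11. The rule limits that count, because a strong peak can have that value only where the region is above 1 in the second library. Of the 11 regions, 4 were above 1 in both libraries without ADAR2. Peaks with a shared region's value were not separated from the shares by distance.

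The share within 100 nt went down over the ratio classes and did not go on doing so at the top. It was 27.2% (24.6 to 29.9) for the 1100 peaks below 0 in both libraries without ADAR2, 24.5% for 2133 peaks with a lower ratio between 0 and 0.5, and 21.7% (19.3 to 24.4) for 1026 between 0.5 and 1. It was 18.1% (14.5 to 22.5) for the 353 strong peaks up to 1.5 and 19.2% (13.4 to 26.8) for the 130 above. With membership decided by the first library alone the share was 20.3% (18.8 to 21.8) inside and 29.4% (27.4 to 31.5) outside. By the second library alone it was 18.8% (15.6 to 22.5) and 24.5% (23.2 to 25.8). The intervals of neighbouring ratio classes overlapped. The ratio classes and the splits by 1 library were added after the data were seen.

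The distances had much the same scale as those among peaks with ADAR2 themselves. The 30951 strong peaks found only with ADAR2 had a median of 842 nt (185 and 3219) to another peak with ADAR2, and 16.4% (16.0 to 16.8) had one within 100 nt and 89.7% (89.4 to 90.1) within 10 kb. At 100 nt and at 1 kb the share of the 483 lay between those of the other 2 sets.

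**Figure D3:**
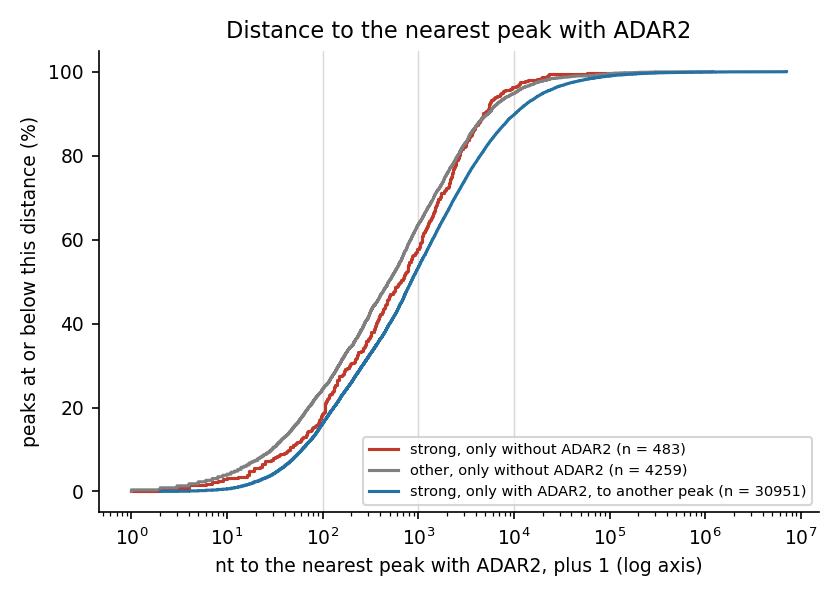
Cumulative share of peaks (y axis, %) by the distance in nt to the nearest peak with ADAR2, plus 1 (x axis, log scale). Curves are for strong and other peaks found only without ADAR2 and for strong peaks found only with ADAR2. For the last set the distance is to another peak with ADAR2 of any ratio, shared ones included. At 1 kb the curves stand at 57.8%, 63.7% and 53.4%.

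The neighbours with ADAR2 were close in height to those of the weaker peaks. For 434 of the 483 strong peaks the nearest was found only with ADAR2, and for 49 (10.1%, 7.76 to 13.2) it was shared. For the other peaks only without ADAR2 a shared neighbour was nearest at 14.0%. The neighbours of the strong peaks had median ratios of 1.32 and 1.06 in the 2 libraries with ADAR2, and those of the other peaks 1.26 and 1.00. Both libraries with ADAR2 were above 1 at 47.8% (43.4 to 52.3) of the neighbours of strong peaks and at 42.3% (40.8 to 43.8) of those of the other peaks. They were below 0 at 4.97% (3.36 to 7.29) and 7.04% (6.31 to 7.85). The nearest neighbour lay on the side of higher coordinates for 247 of the strong peaks and on the lower side for 236.

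Whether a strong peak had peaks with ADAR2 on both sides depended on the distance allowed. Peaks with ADAR2 were present on both sides within 10 kb for 339 of the 483 (70.2%, 66.0 to 74.1), and on 1 side only for 126. Within 1 kb they were present on both sides for 95 (19.7%, 16.4 to 23.4) and on 1 side for 184, and within 100 nt for 6 and 83. For the other peaks only without ADAR2 the shares with both sides were 71.3% within 10 kb and 21.7% within 1 kb. The median number of peaks with ADAR2 within 10 kb was 5 (quartiles 3 and 8, at most 24) around a strong peak and 6 (3 and 10, at most 44) around another. A shared region lay within 1 kb of 60 strong peaks (12.4%, 9.77 to 15.7) and of 17.7% (16.5 to 18.8) of the other peaks.

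At 7 strong peaks there were at most 3 nt to a peak with ADAR2. At 3 of them there were exactly 3 nt, on chromosome X at 16844238, as above, on chromosome 8 from 73943294 to 73943330, with ratios of 2.24 and 1.20, and on chromosome 20. On chromosome 15 the strong peak from 85213070 to 85213134 adjoined a shared peak of 126 nt directly. Its ratios were 1.98 and 1.09, and the shared peak's were 1.14 and 1.09 in the libraries without ADAR2, against 0.50 and 0.44 in those with ADAR2. The second library's value was the same in both rows. On chromosome 4 from 71639271 to 71639279 a strong peak with 2.24 and 1.15 had 1 nt between it and a peak found only with ADAR2, which had 2.39 and 1.87 there. On chromosome 1 from 229625817 to 229625822 the ratios were 2.24 and 2.04, and the peak with ADAR2, at 2 nt, had 1.65 and 1.28. On chromosome 14 from 73586636 to 73586648 they were 1.24 and 1.03, and the peak with ADAR2, also at 2 nt, had -0.67 and -0.04. On chromosome 20 from 33595385 to 33595393 they were 1.07 and 1.56, against 1.57 and 1.16 for the peak with ADAR2 at 3 nt. At such sites the edges that set the class of a peak lay a few nucleotides apart. With a peak with ADAR2 within 50 nt counted as the same site 428 strong peaks would remain, and within 100 nt 394.

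The same value in neighbouring rows was seen at other sites. Of 11 strong peaks within 100 nt of a shared region, 3 had the second library's value of that region, to within 0.0005, and 1 had the first library's. Of 214 other peaks only without ADAR2 at that distance, 110 (51.4%) had the same second value and 35 (16.4%) the same first value. These counts cannot be set against each other. Strong peaks had to be above 1, and only 4 of the 11 regions were so in both libraries without ADAR2. Among the strong peaks themselves, 10 pairs of consecutive members lay within 100 nt of each other, of which 5 had equal second values and 6 equal first values. Among the 417 consecutive pairs on a chromosome more than 10 kb apart, 11 had equal second values and 75 equal first values. Some second-library values have more than 3 decimals, at 30 of the 483 strong peaks and at 766 of the 4259 other peaks only without ADAR2. No first-library value does in either set.

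Away from peaks with ADAR2 there were few strong peaks. Only 18 of the 483 had none within 10 kb, and these had median ratios of 2.24 and 1.24 and a median width of 33 nt. The farthest lay on chromosome 17 from 33700241 to 33700268, 194933 nt from the next peak with ADAR2, with ratios of 1.24 and 1.01 (1.13 ± 0.17, SD, n = 2). It was also among the 8 members tied at a lower ratio of 1.009. The second farthest was the strongest peak, on chromosome 1. On chromosome 5 from 93018880 to 93018952 the distance was 58007 nt and the ratios 1.14 and 1.54. On chromosome 12 the peaks from 95365201 to 95365280 and from 12397204 to 12397253 stood at 23036 and 22485 nt.

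Among the strong peaks the median ratios differed little with distance, but the rule had cut both ratios at 1, which limits how far they could differ. The 89 strong peaks within 100 nt of a peak with ADAR2 had median ratios of 2.24 and 1.35, the 190 between 100 nt and 1 kb had 2.24 and 1.25, and the 186 between 1 and 10 kb had 2.24 and 1.28. Distance and mean ratio had a Spearman correlation of 0.05 over the 483 and of 0.13 over the other 4259 peaks only without ADAR2. Of the 89 close pairs, the neighbour with ADAR2 had a higher mean ratio in its own libraries than the strong peak had in the libraries without ADAR2 at 25. It did so at 45 of the 190 and at 42 of the 186 pairs farther apart. Strong peaks were chosen for ratios above 1 and their neighbours were not, so low counts follow from the rule at any distance. The denominators of these ratios are not named, so these counts compare the deposited values and not amounts of bound RNA.

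Strong peaks were mostly single. With members no more than 10 kb apart joined, 402 stood alone, 66 formed 33 pairs and 15 formed 5 groups of 3. Another strong peak lay within 10 kb of 81 members (16.8%, 13.7 to 20.4), and a strong peak lay within 10 kb of 8.12% (7.34 to 8.98) of the other peaks only without ADAR2. A further peak found only without ADAR2, of any ratio, lay within 10 kb of 53.6% (49.2 to 58.0) of the strong and 55.9% (54.4 to 57.4) of the other peaks. Neighbouring rows can carry the same value, as above, and that was not separated from these shares.

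The 5 groups differed in their surroundings. On chromosome 17 from 27005105 to 27005648 all 3 lay within 544 nt, with 2.24 and 1.85, 2.66 and 1.10, and 2.24 and 1.10, and 2 of them had the same second value. Within 5 kb of this group there was 1 peak only with ADAR2, 1 shared region and no weaker peak only without it. On chromosome 4 from 69202257 to 69203161 the 3 had 1.40 and 1.56, 1.98 and 1.21, and 1.07 and 1.08. Around them lay 5 peaks only with ADAR2, the nearest 96 nt away.

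On chromosome 18 from 55278869 to 55282941 the members had 1.66 and 1.35, 2.24 and 1.35, and 1.24 and 1.12, and on chromosome 14 from 51712038 to 51716233 they had 2.24 and 1.12, 2.24 and 1.15, and 1.40 and 1.00. The chromosome 14 group was the one with most weaker peaks only without ADAR2 close by, 2, together with 4 peaks only with ADAR2 and 1 shared. On chromosome X from 84510287 to 84519429 the first 2 members, 22 and 73 nt wide, had identical ratios of 1.24 and 1.06, and the third had 2.24 and 1.95. The map of the groups shows the members with the peaks around them. The third chromosome 14 member had a peak with ADAR2 5 nt away, too close to be told apart at the scale drawn. Members were chosen for having no peak called with ADAR2 at the same place, so a lack of overlap is not a result of the map.

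**Figure D4:**
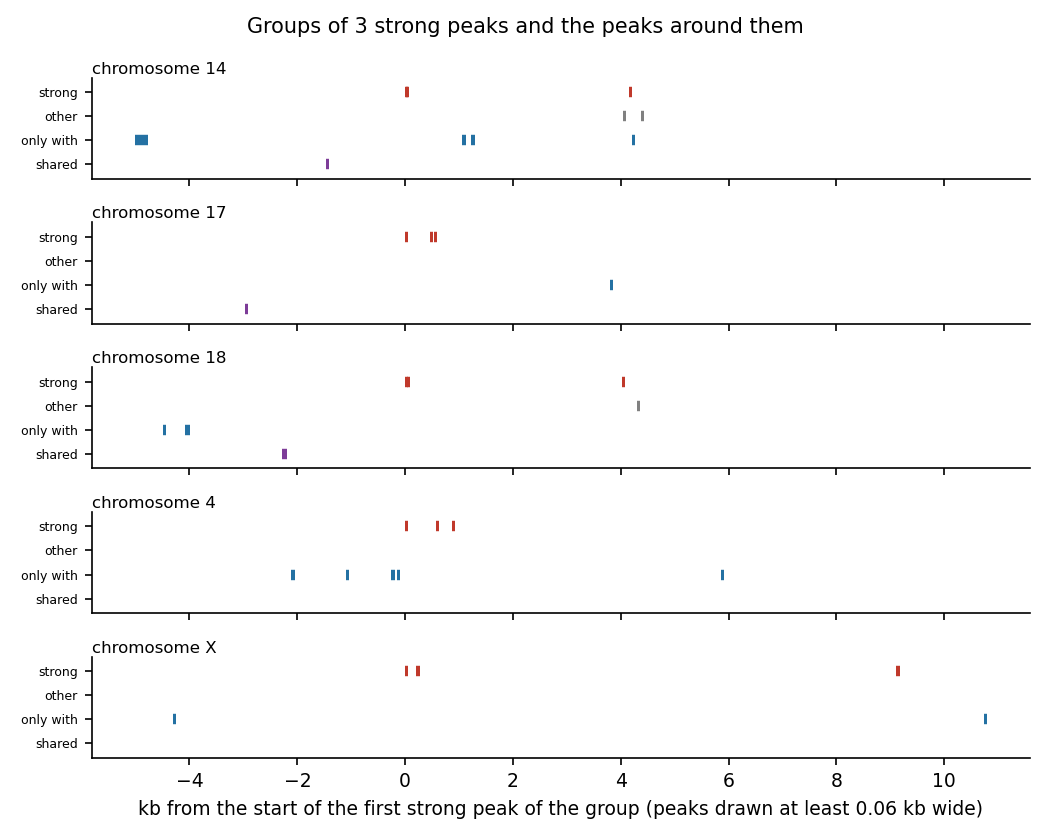
Positions (x axis, kb from the start of the first strong peak) of strong and other peaks only without ADAR2, peaks only with ADAR2 and shared peaks, 1 row each, in the 5 groups of 3 strong peaks and 5 kb to either side. The chromosome 4 and 17 groups are compact, at 905 and 544 nt, and the chromosome X group spans 9143 nt.

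Windows dense in peaks found only without ADAR2 differed in how many strong ones they held. In fixed windows of 100 kb, the 10 windows richest in peaks specific to cells without ADAR2 held 146 of them, of which 8 (5.48%, 2.80 to 10.4) were strong, an interval that includes the 10.2% over all. The densest window, on chromosome 11 from 65200001 to 65300000, held 28 and no strong one. Likewise there was none among 17 on chromosome 1 from 245000001 to 245100000 and none among 15 on chromosome X from 73000001 to 73100000. On chromosome 10 from 28800001 to 28900000, in contrast, 3 of 16 were strong, as were 2 of 11 on chromosome 6 from 35800001 to 35900000 and 2 of 10 on chromosome 19 from 5600001 to 5700000. No window held more than 3, and the strong peaks were spread over 418 of the 2342 windows with a peak only without ADAR2. These windows were chosen after the data were seen.

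By chromosome the strong peaks followed the other peaks only without ADAR2 with a few departures. They lay on 23 chromosomes, with 54 (11.2%, 8.67 to 14.3) on chromosome 1, where the other peaks had 11.3%. Chromosome 6 held 40 (8.28%, 6.14 to 11.1), against 5.66% (5.00 to 6.39) of the other peaks, and chromosome 2 also held 40, against 6.88%. Chromosome 11 held 15 (3.11%, 1.89 to 5.06), against 5.71% (5.05 to 6.44), and chromosome 5 held 20 (4.14%, 2.70 to 6.31), against 6.64% (5.94 to 7.43). Chromosome 17 held 31 (6.42%, 4.56 to 8.97), against 8.55% (7.74 to 9.42). The shares of strong peaks were highest relative to the other peaks on chromosome 21, with 10 strong peaks (2.07%, 1.13 to 3.77) against 1.10% (0.831 to 1.46), and on chromosome 18, with 11 (2.28%, 1.28 to 4.03) against 1.27% (0.973 to 1.65). On each of these chromosomes the intervals of the 2 sets overlapped, and none of these shares was tested. The densest window lies on chromosome 11, with 28 of its 243 weaker peaks, and whether it bears on that chromosome's share was not tested.

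**Figure D5:**
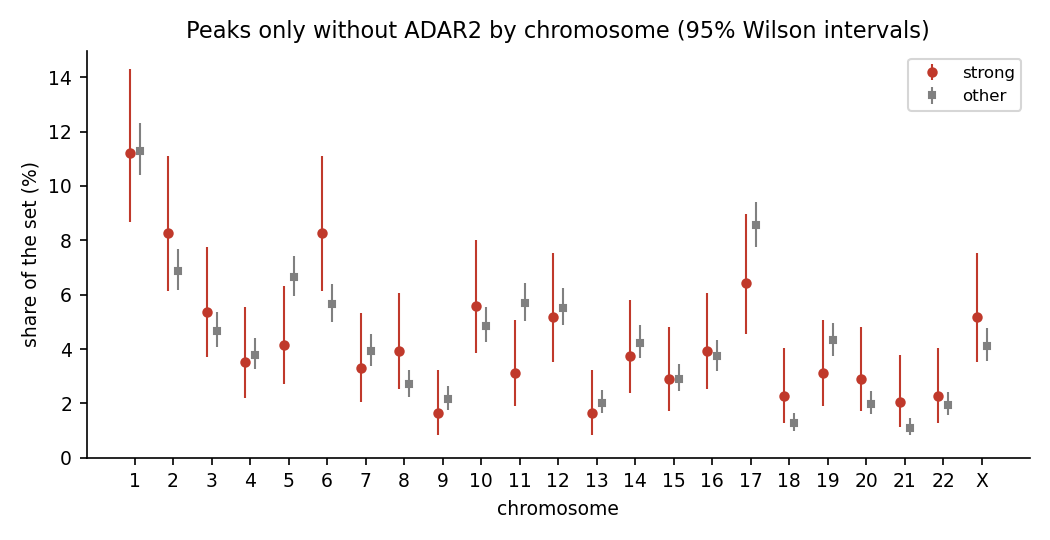
Share of strong (red) and other (grey) peaks found only without ADAR2 on each chromosome (y axis, %), with 95% Wilson intervals. Chromosome 6 stands higher among strong peaks, at 8.28% against 5.66%, and chromosome 11 lower, at 3.11% against 5.71%.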

How the data were processed

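Input was 1 deposited table of peaks, with 4 columns of log2 ratios made by the authors and a class for each peak. The submitters' processing notes name hg19 as the build. The sources used here do not give the aligner, peak caller, thresholds or denominator. Column pairs were assigned to conditions through the class column, because each pair is 0 in every peak of the opposite class. Shared rows with identical coordinates were averaged. Distances are the nucleotides between facing edges, to any peak with ADAR2, shared ones included. Intervals on shares are 95% Wilson intervals from scipy 1.17.1, with pandas 2.3.3 and numpy 2.4.6. The functions were tested on simulated intervals. Named peaks are the 12 with the highest lower ratio, 5 on either side of the threshold, the 5 closest and 5 farthest, the 3 widest, the narrowest, and every group of 3 within 10 kb. Of the narrowest, 3 were to be named, and all 5 tied at 1 nt are given. Ties at the fifth place beside the threshold and among the closest are given as counts. The members and lists were chosen with earlier results of these data known. Gene assignment and motif searches were planned and not run, because no genome or annotation of hg19 was used here. Values of the input library were not analysed here.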

Additional observations from a re-analysis of the deposited data

How the results depend on the processing

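The number of strong peaks depended on the threshold: it was 1509 above 0.5 in both libraries, 130 above 1.5, 24 above 2 and 1870 for a mean above 1. With 1 library left out it ranged from 499 to 2856. The median distance of 654 nt (95% binomial interval of the median, 472 to 803) ranged from 618 to 634 nt with 1 library left out and became 1925 nt when the neighbour had to be above 1 in both libraries with ADAR2. The median width of 32 nt was 35.5 nt for the 24 peaks above 2, and 32 nt with either library left out. The share within 100 nt, 18.4%, ranged from 18.8% to 20.3% with 1 library left out. Merging members within 1 kb gave 464 regions, and keeping the mitochondrial chromosome gave 487 peaks. Depth is not in the table, so precision of a single ratio is not known. No paired analysis was possible because the columns carry no replicate number and no result comes from a test over libraries.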
